A study of Mus musculus with 17 samples.

Results

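The squamous differentiation genes examined here included the small proline-rich (Sprr) and late cornified envelope (Lce) genes of the mouse, apart from *Sprr2c-ps*. The others were *Ivl*, *Lor*, *Flg*, *Tgm1*, *Tgm3*, *Sbsn* and *Dmkn*. All were found by symbol, using the gene names carried by the lung single-cell matrix, which did not hold *Sprr2c-ps*. They came to 44 of the 55450 genes in the bulk table: 21 Lce genes, 16 Sprr genes and 7 single genes. The symbols alone decided membership, but the gene group itself was chosen by its bulk TPM values in these libraries, so the members' bulk levels and differences are given as a description with no p-value, and calls among them only as counts beside those of all genes.

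The libraries were made from cultured lines of MMTV-PyMT mice, females of the FVB/NJ strain taken at 10 to 12 weeks, in which a mammary promoter drives the polyoma middle T oncogene, and every group carried this transgene. Tumors of the mammary fat pad (MFP) and tissues with metastases, namely lung, lymph node (LN) and bone marrow (BM), were dissociated, grown for a month under conditions that favored cancer cells, and sorted into cells with low or with high CD44, all taken as EpCAM high. Bulk RNA-seq covered 14 libraries in 7 groups of 2: MFP, for which the labels give no CD44 status, and, from each of LN, BM and lung, CD44low and CD44high cells. Both libraries of a group were clonal isolates from different mice, so each stood for 1 clone, and 3 single-cell libraries covered LN CD44high (lymphH), lung CD44low (lungL) and lung CD44high cells (lungH).

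Bulk values are TPM, transcript levels scaled for gene length and library size, which keep no record of the reads behind each value. Between 11508 and 13052 genes per library had at least 1 TPM. The lung libraries stood apart from their sorting label: *Epcam*, which encodes the surface protein used for sorting, was listed at 0 in both lung CD44low libraries and had 0.23 and 0.86 TPM in the lung CD44high libraries, against 315 to 941 TPM in the other 10. The summed level of 9 epithelial markers was 1.74 to 87.6 TPM in the 4 lung libraries, 2197 to 4444 TPM in LN and BM and 6735 and 7604 TPM in MFP. The summed level of 8 fibroblast markers was 4685 and 5089 TPM in lung CD44low cells, 196 and 86.8 TPM in lung CD44high cells and 0.5 to 11.6 TPM elsewhere. Basal or myoepithelial markers, a list of 7, summed to 694 and 743 TPM in lung CD44low cells, 40.04 and 52.9 TPM in lung CD44high cells, 594 and 656 TPM in the MFP libraries and 16 to 67.3 TPM in LN and BM, with different genes behind these sums. In MFP *Krt14* gave 594 and 655 TPM of it and *Acta2* at most 0.06 TPM, whereas in lung CD44low cells *Acta2* gave 657 and 711 TPM and *Krt14* was listed at 0. Macrophage markers summed to 1.31 to 23.2 TPM and endothelial ones to at most 0.18 TPM. The part of these differences in the results below was not tested.

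Squamous epithelia, such as epidermis, end their life as flattened dead cells wrapped in a cornified envelope. Transglutaminases cross-link involucrin, loricrin and the small proline-rich and late cornified envelope proteins beneath the membrane, and filaggrin condenses the keratin filaments inside. Most of these structural genes lie side by side in the epidermal differentiation complex, and simple mammary epithelium uses few of them outside squamous metaplasia or stress. Transcription factors of the AP-1 family, dimers of JUN and FOS proteins, are known activators of many of them.

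Of the 44 members, 40 lay on chromosome 3 of mm10 between 92080271 and 93293686, a stretch of 1213.4 kb. *Sbsn* and *Dmkn* lay 7621 bases apart on chromosome 7, *Tgm1* was on chromosome 14 and *Tgm3* on chromosome 2. Promoter windows of 300 bases, 250 before and 50 after the RefSeq start, were at hand for 41 members. The sequence TGANTCA was searched on both strands and reads as itself on either strand. It takes in the site bound by AP-1 and leaves the middle base free. It was found for 14 of these 41 genes (34.1%), against 8.97% of all 27025 genes with such a window. The matches fell to 9 of 14 Sprr genes, 0 of 20 Lce genes and 5 of the 7 single genes (*Dmkn*, *Flg*, *Ivl*, *Lor* and *Sbsn*). The match of *Sprr1b*, that of *Flg* and the first of *Sbsn* read TGAATCA, and the others TGAGTCA or TGACTCA. Neighboring Sprr genes are copies of each other, so these matches are not independent, and a match is a description of letters and not a bound site.

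The 250 bases before the start are shown for *Sprr1a*, the member with the highest level in these libraries, for its close relative *Sprr1b*, which was silent in bulk, for *Sprr2h*, which was found only in single cells, and for *Lce1g*, which stands for the Lce windows without a match. Sequences are from RefSeq on GRCm38.p6, the assembly of mm10, with positions chr3:92485882-92486131 (minus strand), chr3:92438780-92439029 (minus strand), chr3:92385435-92385684 (plus strand) and chr3:92752339-92752588 (minus strand), and run 5′ to 3′ with the matches to TGANTCA in capitals.
Sprr1a: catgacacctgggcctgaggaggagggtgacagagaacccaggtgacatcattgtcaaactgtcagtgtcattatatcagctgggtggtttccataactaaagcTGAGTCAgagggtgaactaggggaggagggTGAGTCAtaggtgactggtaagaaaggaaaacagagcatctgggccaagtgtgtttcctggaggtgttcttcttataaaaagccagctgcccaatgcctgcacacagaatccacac
Sprr1b: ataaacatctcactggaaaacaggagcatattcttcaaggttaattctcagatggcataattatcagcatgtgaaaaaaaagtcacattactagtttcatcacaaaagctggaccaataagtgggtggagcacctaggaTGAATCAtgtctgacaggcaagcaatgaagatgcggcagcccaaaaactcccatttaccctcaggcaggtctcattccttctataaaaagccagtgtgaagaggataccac
Sprr2h: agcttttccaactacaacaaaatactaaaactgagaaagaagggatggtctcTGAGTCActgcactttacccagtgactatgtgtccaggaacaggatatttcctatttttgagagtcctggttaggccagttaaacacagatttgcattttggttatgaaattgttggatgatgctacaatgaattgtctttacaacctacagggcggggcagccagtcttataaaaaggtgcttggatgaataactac
Lce1g: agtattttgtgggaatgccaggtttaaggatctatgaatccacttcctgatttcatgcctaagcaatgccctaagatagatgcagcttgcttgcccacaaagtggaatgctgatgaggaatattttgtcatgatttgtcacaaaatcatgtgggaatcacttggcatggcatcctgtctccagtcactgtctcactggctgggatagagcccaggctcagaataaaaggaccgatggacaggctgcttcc
*Sprr1a* carried 2 matches, starting at -146 and -116 from the start, and *Sprr1b* 1 match at -111. In the Sprr2 genes with a match, the first one began between -198 and -193, as the map of matches by position shows. The 3 nearly identical genes *Sprr2a1*, *Sprr2a2* and *Sprr2a3*, and *Sprr3* and *Sprr4*, had no match in this window. A second sequence, GGGTG, the core bound by KLF factors, was in the windows of 21 of 41 members (51.2%) and of 59.8% of all genes on either strand.

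**Figure D1:**
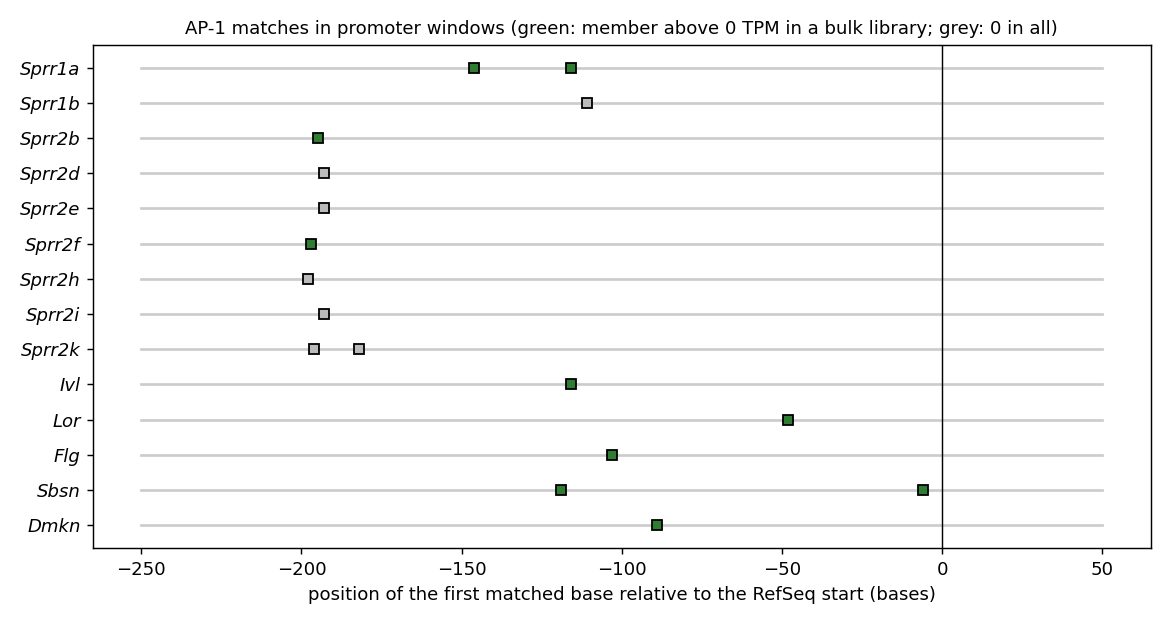
Position of the first base of each TGANTCA match, in bases from the RefSeq start, for the 14 members with a match (squares; grey lines mark the window from 250 bases before to 50 after the start, the first of several windows for *Dmkn*). The Sprr2 genes share a first match between -198 and -193, and both silent members (grey) and members with any bulk signal (green) carry one.

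Most members were silent in bulk. In all 14 libraries, 23 members were listed at 0, namely 13 Lce and 10 Sprr genes. A further 11 members stayed under 1 TPM in every library, and 10 reached at least 1 TPM in some library. Only 5 members had at least 1 TPM in both libraries of some group: *Lce1g*, *Lce1h*, *Sbsn* and *Sprr1a* in MFP, *Sbsn*, *Sprr1a* and *Sprr2a2* in lung CD44high cells, and *Sbsn* alone in LN CD44low, both BM groups and lung CD44low cells. No member reached 1 TPM in both LN CD44high libraries. In bulk samples, fewer cells that express a gene and less RNA per cell cannot be told apart.

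Summed over the members, the 2 MFP libraries had 51.7 and 27.1 TPM and the lung CD44high libraries 206 and 209.7 TPM. The 8 LN and BM libraries lay between 0.6 and 5.4 TPM, and the lung CD44low libraries had 5.12 and 10.7 TPM. The lung CD44high sums were nearly all *Sprr1a*, since without it they were 6.56 and 6.31 TPM, within the range of the lung CD44low libraries. In MFP the sum was spread over Lce genes and *Sbsn*, and *Sprr1a* gave 1.24 and 1.39 TPM of it.

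**Figure D2:**
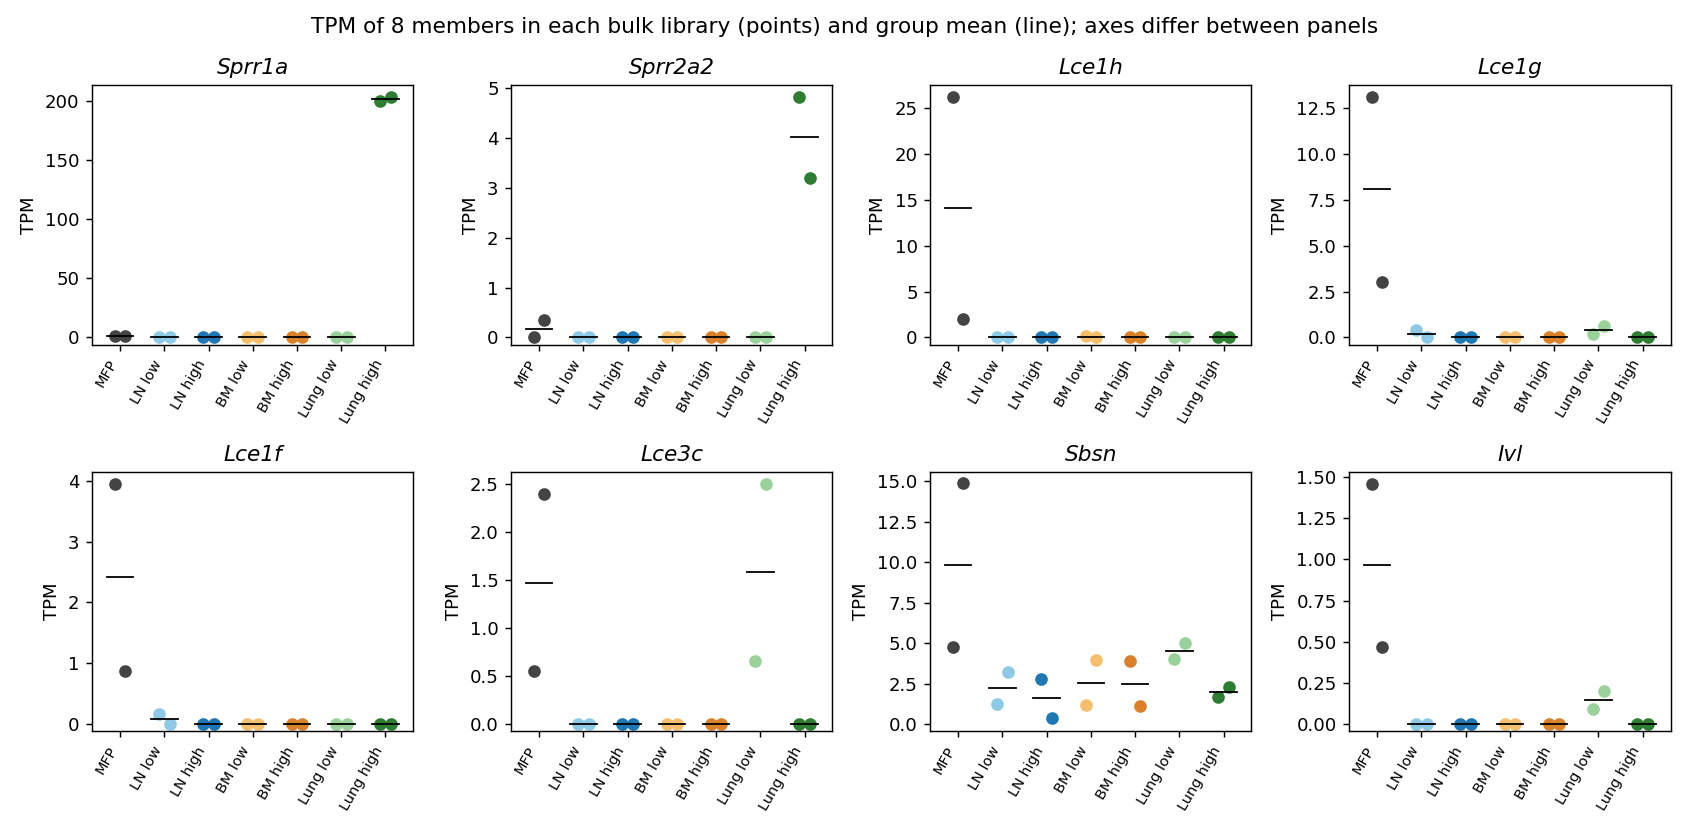
TPM of 8 members in the 14 bulk libraries, with 1 point per library and a line at the mean of the 2 libraries of each group; the vertical axis differs between panels, and low and high stand for CD44. *Sprr1a* and *Sprr2a2* are highest in the lung CD44high libraries, *Lce1f*, *Lce1g* and *Lce1h* in MFP replicate 1, and *Sbsn* is above 0 everywhere.

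The small proline-rich proteins are cross-bridges of the envelope, and *Sprr1a* is also known as a gene induced by injury in other tissues. *Sprr1a* (ENSMUSG00000050359.7, chromosome 3 of mm10 from 92483952 to 92485895, minus strand) had 199.6 and 203 TPM in lung CD44high cells (mean 202 ± 2.68, SD, n = 2) and 1.24 and 1.39 TPM in the MFP libraries. It was listed at 0 in the other 10 libraries, lung CD44low included. The 3 levels did not overlap, and the log2 difference between lung CD44high cells and MFP was 6.45 (standard error 0.18) on the log2(TPM + 1) scale. No stretch of 31 bases of its transcripts was shared with another gene, so its reads could be told apart from those of its relatives.

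*Sprr2a2* (ENSMUSG00000068893.5, chromosome 3 from 92215920 to 92256724, plus strand) had 4.83 and 3.21 TPM in lung CD44high cells, 0 and 0.35 TPM in the MFP libraries and 0 in all other libraries. Both lung CD44high libraries were above both MFP libraries, with a log2 difference of 2.09 (standard error 0.19), which was 4.25 with a pseudocount of 0.1 in place of 1 and 1.88 without MFP replicate 1. This gene overlaps *Sprr2a1* and shares 97.8% of its 31-base stretches with it, so the level is better read as that of the Sprr2a copies together. *Sprr2a1* was given 0.05 TPM at most and *Sprr2a3* 0.26 TPM, both in lung CD44high replicate 2. *Sprr2b* reached 0.17 TPM in that library and *Sprr2f* 0.22 TPM in MFP replicate 2, each above 0 in 1 library. The 10 silent Sprr genes were *Sprr1b*, *Sprr2d*, *Sprr2e*, *Sprr2g*, *Sprr2h*, *Sprr2i*, *Sprr2j-ps*, *Sprr2k*, *Sprr3* and *Sprr4*.

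Late cornified envelope proteins are added to the envelope late in epidermal differentiation. They had a different distribution from *Sprr1a*: *Lce1f*, *Lce1g* and *Lce1h*, the Lce1 genes that reached 1 TPM, were highest in MFP. *Lce1h* (ENSMUSG00000049593.8, chromosome 3 from 92763215 to 92765065, minus strand) had 26.2 and 2 TPM in the MFP libraries, 0.13 TPM in BM CD44low replicate 1 and 0 elsewhere. *Lce1g* (ENSMUSG00000027919.5, chromosome 3 from 92750148 to 92752338, minus strand) had 13.1 and 3.03 TPM in the MFP libraries, 0.21 and 0.62 TPM in lung CD44low cells, 0.39 TPM in LN CD44low replicate 1 and 0 in the other 9 libraries. Both MFP libraries lay above all others for these genes, but replicate 1 was far above replicate 2, with a mean of 14.1 ± 17.1 TPM (SD, n = 2) for *Lce1h* and 8.06 ± 7.12 TPM for *Lce1g*. The log2 difference of *Lce1g* from MFP was -2.68 (standard error 0.45) in LN CD44low and -2.43 in lung CD44low cells, and without MFP replicate 1 it was -1.77 and -1.53. With a pseudocount of 0.1 it was -4.86 and -3.77. For *Lce1h* in BM CD44low cells the difference was -3.09 (standard error 0.73), -1.50 without MFP replicate 1, -4.68 without replicate 2 and -5.61 with a pseudocount of 0.1.

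*Lce1f*, next to them, had 3.95 and 0.87 TPM in the MFP libraries and 0.17 TPM in LN CD44low replicate 1. *Lce3c* (ENSMUSG00000045475.5, chromosome 3 from 92944486 to 92945733, plus strand) had 0.55 and 2.39 TPM in the MFP libraries, 0.66 and 2.5 TPM in lung CD44low cells and 0 in the other 10 libraries. For *Lce3c*, MFP and lung CD44low cells overlapped and differed by 0.07 (standard error 0.37) on the log2 scale, a difference that was -0.49 without MFP replicate 1 and 0.64 without replicate 2. Its neighbor *Lce3d* was above 0 in 1 library, lung CD44low replicate 2, with 2.13 TPM. Lce genes resemble each other, and *Lce1g*, *Lce1h*, *Lce3c* and *Lce3d* share 36.2%, 47.7%, 49.7% and 60.3% of their 31-base stretches with other genes, so reads may be split among copies.

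The remaining Lce genes were lower. *Lce1c*, *Lce1d* and *Lce1m* peaked at 0.12, 0.19 and 0.15 TPM, each in a single library. The 13 that were listed at 0 in every library were *Lce1a1*, *Lce1a2*, *Lce1b*, *Lce1e*, *Lce1i*, *Lce1j*, *Lce1k*, *Lce1l*, *Lce3a*, *Lce3b*, *Lce3e*, *Lce3f* and *Lce6a*.

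The genes for involucrin, loricrin and filaggrin were barely expressed. *Ivl*, encoding involucrin (chromosome 3 from 92570902 to 92573735, minus strand), had 1.46 and 0.47 TPM in the MFP libraries, 0.09 and 0.2 TPM in lung CD44low cells and 0 in the other 10 libraries. *Lor*, encoding loricrin, had 0.43 and 0.25 TPM in the MFP libraries and 0.04 TPM in lung CD44low replicate 2. *Flg*, encoding filaggrin, was above 0 in lung CD44high replicate 2 alone, with 0.11 TPM. The cross-linking enzymes stayed as low, with a highest value of 0.28 TPM for *Tgm1* (MFP replicate 2, above 0 in 11 libraries) and 0.06 TPM for *Tgm3* (lung CD44high replicate 1, above 0 in 4 libraries). Thus *Ivl*, *Lor*, *Flg*, *Tgm1* and *Tgm3* were under 1 TPM in the lung CD44high libraries, where *Sprr1a* had 199.6 and 203 TPM.

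*Sbsn* and *Dmkn* encode secreted proteins of the upper epidermis. *Sbsn* (ENSMUSG00000046056.15, chromosome 7 from 30751471 to 30756134, plus strand) was the only member above 0 in all 14 libraries. Its MFP levels were 4.76 and 14.9 TPM, and its LN levels 1.25 and 3.23 TPM for CD44low and 2.82 and 0.37 TPM for CD44high cells. The BM levels, in the same order, were 1.16 and 3.94 TPM and 3.91 and 1.11 TPM, and the lung levels 4.04 and 5.04 TPM and 1.67 and 2.28 TPM. Both MFP libraries were above every LN, BM and lung CD44high library, and MFP and lung CD44low cells overlapped. Differences from MFP were -2.06 to -0.79 on the log2 scale (standard error 0.68). They ran from -2.79 to -1.52 without MFP replicate 1 and from -1.33 to -0.062 without MFP replicate 2, so their size rested on which MFP library was used, and the LN and BM groups overlapped one another. A gene named *Tmem147os* overlaps *Sbsn* on the same strand and shares 7.95% of its 31-base stretches. *Dmkn* reached 1.44 and 0.33 TPM in BM CD44high cells and was above 0 in 7 libraries, with 0.84 TPM in MFP replicate 2 and at most 0.44 TPM in the others.

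Along chromosome 3 the expressed members did not form 1 block. The window held 35 other genes, of which 7 reached 1 TPM in some library and 19 were listed at 0 in all. *Crct1*, a cysteine-rich gene of the complex that lies between the Lce3 genes and *Flg* and was singled out after its values were seen, had 45.3 and 97.8 TPM in lung CD44low cells, 0 and 0.19 TPM in lung CD44high cells and 0 in the other 10 libraries. Its log2 difference between lung CD44high and low cells was -5.95 (standard error 0.30), with an adjusted p = 2.63e-07 from limma. *Sprr1a* and *Crct1* thus lay in the same complex and were each high in a different lung group.

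**Figure D3:**
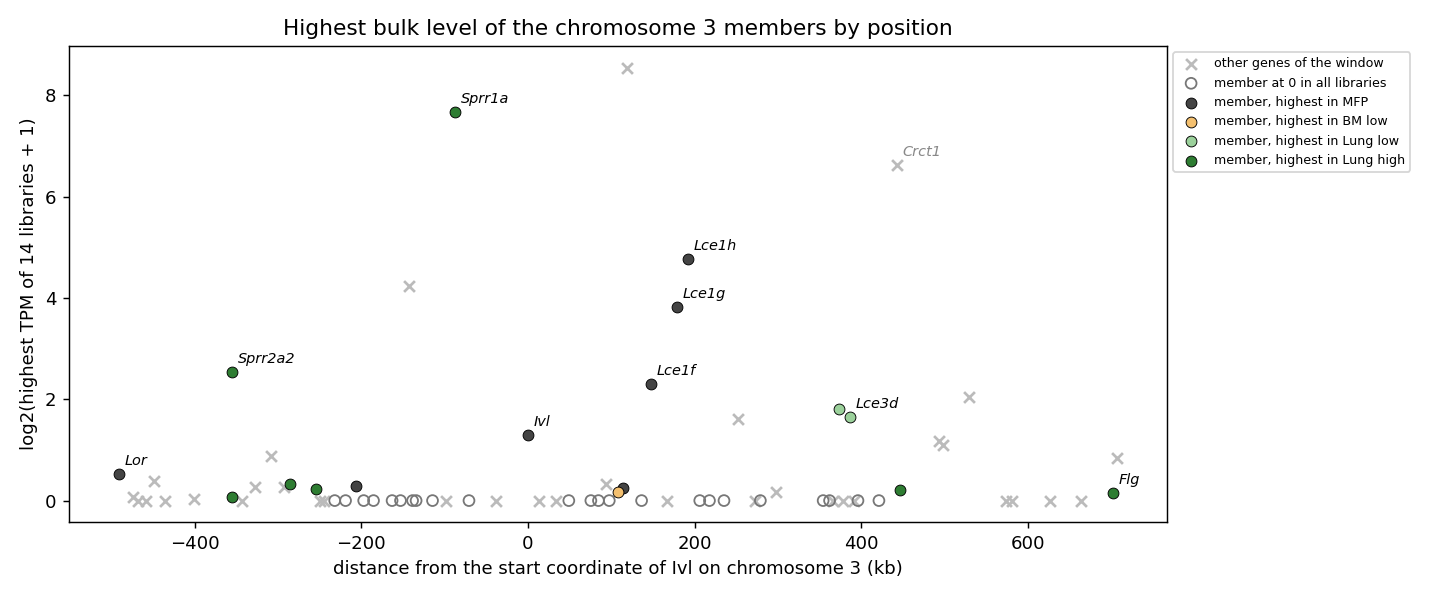
Highest TPM of the 14 libraries, as log2(TPM + 1), for the 40 members on chromosome 3 (circles) and the 35 other genes of the window (crosses) against the distance in kb from the start coordinate of *Ivl*; color gives the group of the highest library. *Sprr1a*, at 203 TPM, stands among silent Sprr genes, and the Lce1 genes that reached 1 TPM sit together on the other side of *Ivl*.

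Of the 44 members, 6 passed the filter of at least 1 TPM in at least 2 libraries (*Sprr1a*, *Sprr2a2*, *Lce1g*, *Lce1h*, *Lce3c* and *Sbsn*). *Lce3c*, with 2.39 and 2.5 TPM as its only values of 1 TPM or more, was just inside it, and *Lce1f*, with 3.95 and 0.87 TPM, just outside. Calls needed an absolute log2 difference over 2 with a limma p, adjusted by Benjamini-Hochberg over 15348 genes, under 0.05. Since the gene group was taken up with these contrasts known, the following counts are listed and nothing is read from them. Against MFP, 2 members were called lower in LN CD44low cells, where 4.79% of all genes were called in either direction. In LN CD44high, BM CD44low, BM CD44high and lung CD44low cells there were also 2 lower, beside 6.12%, 7.16%, 7.67% and 18.8% of all genes. Lung CD44high cells had 2 higher and 2 lower, beside 13.5% of all genes. Between CD44high and CD44low cells, 2 members were called higher in lung (11.3% of all genes, 2.49% higher and 8.8% lower). In LN (0.208% of all genes, 0.117% higher and 0.0912% lower) and BM (0.104%, 0.0521% higher and 0.0521% lower) 0 were called. There, 0 members also had an unadjusted p under 0.05 in limma. *Sprr1a*, *Sprr2a2* and *Lce3c* were listed at 0 in all LN and BM libraries, so they could show no difference. The lower members were in each case *Lce1g* and *Lce1h*, and the higher ones *Sprr1a* and *Sprr2a2*. Without MFP replicate 1 the members called against MFP were 0 in LN CD44low and lung CD44low cells, 1 in each BM group and 2 in LN CD44high and in lung CD44high cells. *Lce1h* was then called nowhere, with differences of -1.585 to -1.497, *Sprr2a2* in lung CD44high cells was at 1.88, under the threshold, and the 2 in LN CD44high cells were *Lce1g* (-2.01) and *Sbsn* (-2.79). With a pseudocount of 0.1, 4 were called lower in each LN and BM group, and the share of all genes called at that setting was not counted.

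The genes around the members in the pathway were tested, since they were no part of the rule, although this list too was drawn up with earlier results of these libraries known. The list held 98 genes, 37 regulators, 12 keratins of stratified epithelium and 49 envelope partners, of which 64 passed the filter. All 6 comparisons with MFP used the same 2 MFP libraries. In each of them more list genes were called lower than higher: 14 lower and 3 higher in LN CD44low cells, 17 and 4 in LN CD44high, 17 and 5 in BM CD44low, 20 and 7 in BM CD44high, 27 and 8 in lung CD44low, and 28 and 6 in lung CD44high cells. Over all genes, 2.72%, 3.68%, 3.17%, 4.03%, 7.62% and 8.03% were called lower in these comparisons and 2.07%, 2.44%, 3.99%, 3.64%, 11.2% and 5.42% higher. The median log2 difference of the 64 genes ran from -0.79 in LN CD44low to -1.85 in lung CD44low cells, where the medians of all genes were -0.18 and 0. The epithelial markers were also lower outside MFP, with sums of 2197 to 4444 TPM in LN and BM and 1.74 to 87.6 TPM in lung against 6735 and 7604 TPM in MFP, and the part of this in the counts was not tested. Another scaling, by the median ratio between libraries, shifted the median of all genes by up to 0.38 on the log2 scale and changed none of these counts by more than 1.5 times.

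**Figure D4:**
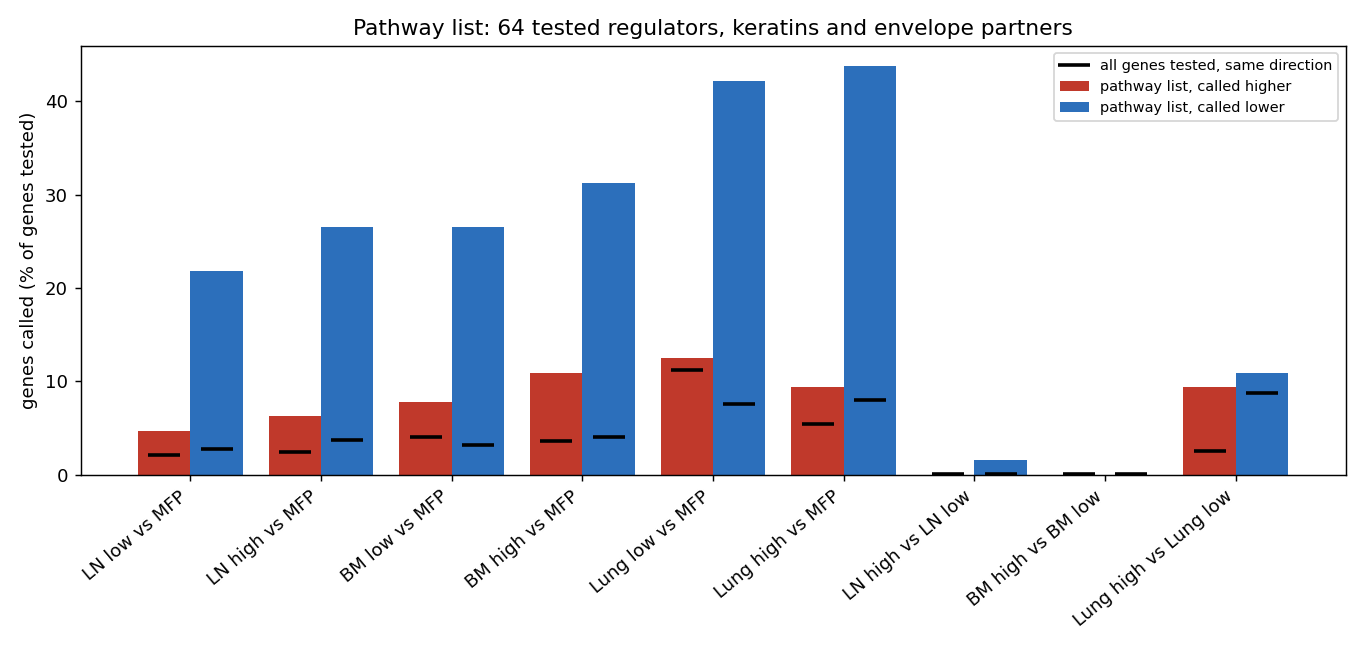
Share of the 64 tested pathway genes called higher (red) and lower (blue) in each of 9 comparisons, in percent, with black marks for the share of all 15348 genes called in that direction. In the 6 comparisons with MFP the blue bars stand above the red ones, and 1 gene was called in LN and 0 in BM between CD44high and low cells.

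Among the regulators, 33 were tested, and 3 to 12 were called lower and 0 to 4 higher per comparison with MFP. *Trp63*, the master factor of stratified epithelium, was listed at 0 in MFP and had 4.61 and 2.65 TPM in lung CD44high, 1.65 and 1.8 TPM in lung CD44low and 2.48 and 1.12 TPM in BM CD44high cells. It was called higher in lung CD44high cells (limma, adjusted p = 0.000263), and without lung CD44high replicate 1 the log2 difference was 1.87, under the threshold. *Ovol1*, a repressor that promotes terminal differentiation, had 5.44 and 8.02 TPM in the MFP libraries. It had 1.12 to 3.9 TPM across LN and BM and was listed at 0 in the 4 lung libraries, where it was called lower. *Grhl3*, an activator of *Tgm1*, had 1.48 and 5.35 TPM in the MFP libraries and at most 0.33 TPM elsewhere, with differences of -1.99 to -1.73 that did not reach the threshold of 2. *Klf4*, a barrier factor of the epidermis, and *Zfp750*, its partner, were called in no comparison. *Klf4* reached 4.65 and 11.8 TPM in lung CD44low cells and 0.6 to 3.3 TPM elsewhere. *Zfp750* had 1.58 to 11.5 TPM in the MFP, LN and BM libraries and at most 0.04 TPM in lung.

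*Gata3*, a luminal mammary factor that is also used in epidermis, had 41.4 and 36.6 TPM in the MFP libraries, 1.15 to 4.08 TPM in the LN, BM and lung CD44low libraries and 187 and 305 TPM in lung CD44high cells. It was called lower than MFP in the former 5 groups and higher in lung CD44high cells by 2.59 (standard error 0.41, limma adjusted p = 0.000828). Between lung CD44high and low cells it differed by 6.29 (adjusted p = 1.65e-06). Like *Sprr1a*, *Gata3* was highest in lung CD44high cells and next in MFP, but it was above 0 in all 14 libraries.

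*Cebpb*, a factor of early keratinocyte differentiation, and *Jund*, an AP-1 subunit, went the other way in lung. *Cebpb* had 99.9 and 544 TPM in lung CD44low and 7.99 and 5.62 TPM in lung CD44high cells, a difference of -4.93 (standard error 0.81, limma adjusted p = 0.00129). *Jund* had 144 and 226 TPM against 3.77 and 2.46 TPM, a difference of -5.48 (standard error 1.18, adjusted p = 0.00647). BM CD44low replicate 2 stood apart for both, with 20.8 TPM of *Cebpb* and 138 TPM of *Jund* where the other LN and BM libraries had 1.86 to 6.23 and 2.64 to 8.26 TPM. Without lung CD44low replicate 2 the *Jund* difference was -5.16 and was no longer called (limma adjusted p = 0.0570).

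The list held 7 AP-1 subunits, and 2 of them were called between lung CD44high cells and MFP, *Fosl2* higher and *Fosl1* lower (limma adjusted p = 0.000605 and 9.39e-05). *Fosl2* had 76.4 and 31.4 TPM in lung CD44high cells against 5.42 and 5.13 TPM, and *Fosl1* 2.34 and 2.45 TPM against 91.4 and 70.7 TPM. Their values are shown because of these calls and were picked after they were seen. The other 5, *Fos*, *Fosb*, *Jun*, *Junb* and *Jund*, were not called in this comparison, with differences of -0.39 to 1.28.

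Of the 12 keratins, 3 were tested. *Krt14*, a keratin of basal cells, had 594 and 655 TPM in the MFP libraries. Its level was 12.6 to 62.4 TPM across LN and BM, it was listed at 0 throughout lung, and it was called lower in all 6 groups. Its differences in LN and BM were between -4.96 and -3.36. Its partner *Krt5* reached 0.06 TPM at most, and *Krt1*, a keratin of the spinous layer, was listed at 0 everywhere. *Krt10*, which pairs with *Krt1* in epidermis, had 4.85 and 5.08 TPM in lung CD44low cells, called higher than the 0.28 and 0.49 TPM of MFP by 2.11 (standard error 0.17, limma adjusted p = 5.02e-06), and 3.51 and 4.36 TPM in lung CD44high cells, where the difference of 1.83 was under the threshold. *Krt6a*, a keratin of stressed epidermis, had 0.28 and 1.15 TPM in the MFP libraries and 0 elsewhere.

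*Krt16*, another stress keratin, had its highest mean in LN CD44low cells, with 21.3 and 8.56 TPM, which overlapped the 4.31 and 11.8 TPM of MFP. In LN CD44high cells it had 1.04 and 0.5 TPM. This was the only list gene called between CD44high and low cells of LN, with a difference of -3.06 (standard error 0.46, limma adjusted p = 0.0271). In 9 of the 14 fits that left 1 library out the adjusted p passed 0.05, up to 0.150, while the difference stayed between -3.28 and -2.45. In 6 of these 9 the library left out was from BM or lung and the difference itself was -3.06 as before. It was also -3.06 without the filter on low TPM, where the adjusted p was 0.0606 and the call was lost.

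Of the envelope partners, 28 were tested, with 9 to 16 called lower and 2 to 5 higher per comparison with MFP. *Sfn*, a 14-3-3 protein of differentiating keratinocytes, had 193 and 154 TPM in the MFP libraries and at most 0.34 TPM in all 12 other libraries. *Serpinb5*, a serpin of mammary and epidermal epithelium, had 224 and 243 TPM in the MFP libraries, 5.68 to 19.7 TPM in LN and BM and 0 in lung. *Klk8*, a protease of desquamation, had 250 and 175 TPM in the MFP libraries, 0.83 to 7.06 TPM in LN and BM and at most 0.28 TPM in lung. All 3 were called lower in each of the 6 groups, and for *Sfn* the differences were -7.44 to -7.11 (standard error 0.20).

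*Evpl* and *Ppl*, the plakin scaffold beneath the envelope, were expressed in MFP, LN and BM. *Evpl* had 2.83 and 3.11 TPM in the MFP libraries and 1.27 to 2.78 TPM in LN and BM, and at most 0.02 TPM in lung, with differences of -1.99 and -1.97 in lung that missed the threshold of 2. *Ppl* had 11.1 and 23.3 TPM in the MFP libraries, 3.52 to 7.08 TPM in LN and BM, at most 0.02 TPM in lung CD44low and 1.68 and 0.75 TPM in lung CD44high cells. It was called lower in both lung groups, with differences of -4.09 and -2.99 (limma adjusted p = 1.77e-05 and 0.000236).

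A pair of partners, picked after their values were seen, were among those higher than in MFP. *Cst6*, an inhibitor of the proteases that control transglutaminase activity, had 1.46 and 0.37 TPM in the MFP libraries, 177 to 285 TPM in LN and BM, 6.71 and 6.57 TPM in lung CD44low and 30.8 and 51.9 TPM in lung CD44high cells. It was called higher in each of the 6 groups, by 2.06 to 7.16 (limma adjusted p = 0.000452 at most). *Cdsn*, the adhesive protein of corneodesmosomes, had 0.47 and 0.21 TPM in the MFP libraries and was highest in lung CD44high cells, with 23.3 and 30.2 TPM, a difference of 4.37 (standard error 0.40, adjusted p = 2.71e-05).

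Between CD44high and CD44low cells, lung had 6 list genes called higher and 7 called lower, beside 2.49% and 8.8% of all genes. In BM limma called 0 of the 64 genes, where 5 had an unadjusted p under 0.05, and in LN 1, where 9 had. Without BM CD44low replicate 1 the BM count was 3, and without LN CD44low replicate 2 the LN count was 3. Of the 33 regulators, 4 were higher and 4 lower in lung CD44high cells, and of the 28 partners 2 were higher and 3 lower.

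Single-cell libraries give counts per gene and cell barcode, and whether these are molecules or reads is not stated in the sources used here. There was 1 library per group, so groups were set side by side without a test and intervals cover counting error only. Barcodes were numbered in the files, and cells shared between libraries could not be counted. After filtering, lymphH held 2562 cells with a median of 585 counts, lungL 348 cells with 4011 and lungH 1236 cells with 557. The depths differ, so libraries are set side by side by rates per 10000 counts, and shares of cells describe the spread within a library.

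*Sprr1a* was found in lungH with 118 counts, 0.534 per 10000 (exact Poisson 95% interval 0.442 to 0.639). It had 0 counts in the 2562 cells of lymphH, with an exact Poisson 95% upper limit of 0.00698 per 10000, and 0 in the 348 cells of lungL, with an upper limit of 0.0166. A floor of 3 counts would be 0.00567 and 0.0135. Over all lungL barcodes, kept or not, there were 3 counts. The order of the 3 libraries was thus the same as in bulk, where *Sprr1a* was listed at 0 in LN CD44high and lung CD44low cells.

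Within lungH, *Sprr1a* was unevenly spread. A count was seen in 36 of 1236 cells (2.91%, exact binomial 95% interval 2.05 to 4.01%), 19 of which had 1 count, and the 10 highest cells held 70.3% of all counts, with up to 23 in a cell, and without that cell the rate was 0.431 per 10000. The cells with a count had a median of 5382 counts and the others 554. With the cells split by depth into 4 groups of 309, a count was seen in 2 cells of the shallowest group and 23 of the deepest, whose median depth was 4733 counts. Per 10000 counts, the deepest group had 0.594 (0.484 to 0.721) and the shallowest 0.138 (0.0167 to 0.499). No cell type known to lack the gene was set apart within lungH, so how much of this share free RNA gives was not tested.

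*Lce1g* was the member with the highest single-cell rate. It had 345 counts in lungL, 1.55 per 10000 (1.39 to 1.73), 108 counts in lungH, 0.489 (0.401 to 0.590), and 2 counts in lymphH. In lungL the counts came from 71 of 348 cells (20.4%, 16.3 to 25.0%), with up to 34 in a cell, and in lungH from 32 of 1236 (2.59%, 1.78 to 3.64%), where a single cell held 40 of the 108 counts and the 10 highest cells 73.2% of them. Without the cell with the most counts, an alternative chosen after seeing the data, the rates were 1.41 in lungL and 0.309 in lungH. Counts this clumped vary more between cells than the Poisson intervals allow for. In bulk the same gene had 0.21 and 0.62 TPM in lung CD44low cells and 0 in lung CD44high cells, so lungH showed counts where bulk listed none. Its rank against *Sprr1a* differed as well. The *Lce1g* rate in lungL, 1.55, was above the 0.534 per 10000 of *Sprr1a* in lungH. In bulk, *Sprr1a* had 199.6 and 203 TPM in lung CD44high cells, far above *Lce1g* in lung CD44low cells. The single-cell values came from other counting software and a different library chemistry, and whether reads of the similar Lce1 copies were assigned to *Lce1g* was not tested.

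The cells with *Sprr1a* and those with *Lce1g* in lungH numbered 36 and 32, with 5 in both, and since 19 and 15 of them held 1 count, nothing is read from this overlap. *Sprr2h* and *Sprr2g*, which were listed at 0 in every bulk library, had 19 counts in 6 cells and 9 counts in 5 cells of lungH and 0 counts in lungL and lymphH. *Sprr2a2* had 2 counts there. The Sprr genes with a count were therefore found in lungH only among the kept cells.

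*Ivl* had 16 counts in 7 cells of lungL, 0.072 per 10000 (0.0412 to 0.117), and 0 in the other libraries, where lungL corresponds to the lung group that held *Ivl* in bulk. *Lor* had 6 counts, all in lungH, whereas bulk listed it at 0 in both lung CD44high libraries. *Sbsn* had 13, 5 and 5 counts in lymphH, lungL and lungH, which are 0.0246, 0.0225 and 0.0226 per 10000 with overlapping intervals. The other members with any count were *Lce1h* (5 in lungL), *Sprr2a3* (3 in lungH) and *Lce1a1*, *Lce1b*, *Lce1c*, *Lce1e*, *Lce1f* and *Lce1j* with 1 or 2 counts in a library. Summed over the members, lymphH had 0.0284, lungL 1.70 and lungH 1.24 per 10000. Of these sums, *Lce1g* made up 1.55 in lungL and 0.489 in lungH. In bulk the lung groups stood in the opposite order. Their sums there were 5.12 and 10.7 TPM for CD44low and 206 and 209.7 TPM for CD44high cells.

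**Figure D5:**
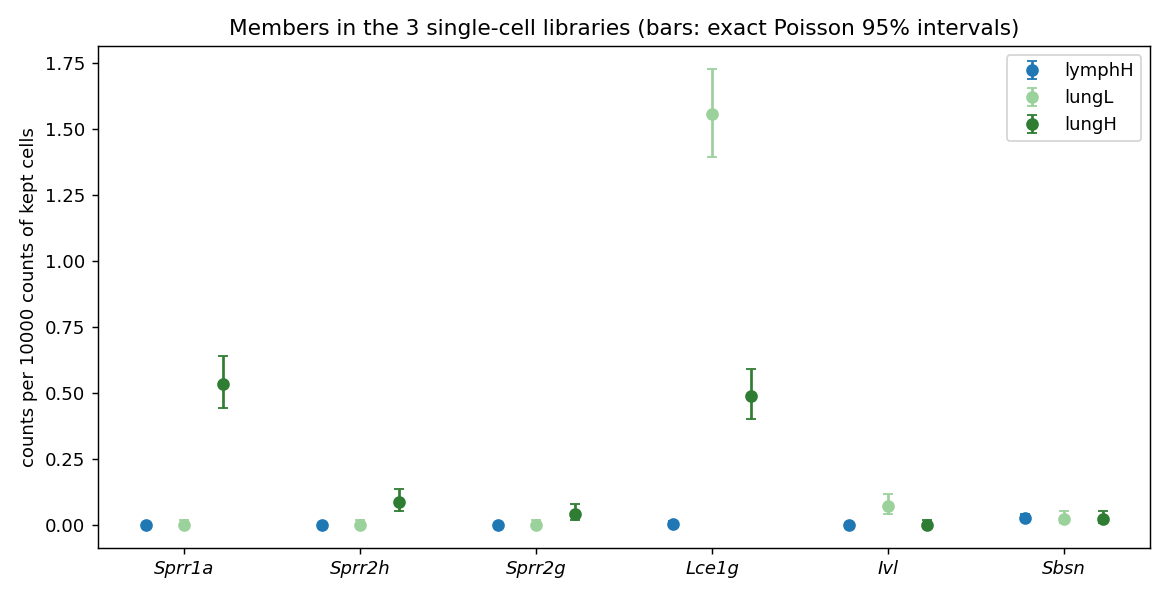
Counts per 10000 counts of kept cells for 6 members in the lymphH, lungL and lungH libraries, with exact Poisson 95% intervals that cover counting error only. *Sprr1a* is above 0 in lungH alone, at 0.534, and *Lce1g* is highest in lungL, at 1.55.

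Pathway genes in the same 3 libraries followed the bulk order in part. *Gata3* had 6.12 per 10000 in lungH, 0.428 in lungL and 0.157 in lymphH, with lungH highest as in bulk. *Jund* had 0.0271 in lungH, 0.0225 in lungL and 0.153 in lymphH, whereas bulk was highest in lung CD44low cells. *Cebpb* had 4.64, 2.84 and 1.32, with lungH above lungL, the opposite order to bulk. *Crct1* had 11 counts in lungL and 0 in the others, and *Krt14* had 87 counts in lymphH and 0 in both lung libraries, each in the order of bulk. *Epcam* had 936 counts in lymphH, 0 in lungL and 3 in lungH.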

How the data were processed

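Bulk RNA was prepared by the authors with a modified SMART-seq2 protocol, aligned with STAR to mm10 and quantified with RSEM on GENCODE, and the authors deposited TPM per gene, which do not carry the depth of each library; the methods state only a minimum. For single cells the authors used ddSeq and kallisto and deposited the counts of every barcode unfiltered. Positions are from GENCODE vM21, which held all 55450 identifiers.

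Here, genes reaching 1 TPM in 2 or more of the 14 libraries (15348) were fitted on the log2(TPM + 1) scale as 7 group means with limma 3.58.1 (eBayes, trend=TRUE, 7 residual degrees of freedom) in R 4.3.3. Calls needed an absolute log2 difference over 2 together with an adjusted p (Benjamini-Hochberg, all genes) under 0.05. The authors' exact test needs read counts, which were not used here. Cells with more than 250 genes and under 10% of counts in 13 mitochondrial genes were kept, holding 5287425 (lymphH), 2220759 (lungL) and 2210623 (lungH) counts. A count of 0 was bounded by the exact Poisson limit, with a floor of 3 counts beside it, and doublets were not called, since no clusters were used. Transcripts were compared by shared runs of 31 bases. Tables were handled with Python 3.11.15, pandas 2.3.3, numpy 2.4.6 and scipy 1.17.1.

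Of the steps, the limma fit alone was run on simulated data, with normal noise and a fixed shift in some genes. Members, lists and tests were chosen with earlier results of these data known. Named were every tested member with its values, all other members by highest TPM, 12 fixed pathway genes, and the 3 called genes with the largest difference in each part of the pathway list. *Crct1*, *Fosl1*, *Fosl2*, *Cst6* and *Cdsn* lie outside this rule and were named after their values were seen. Alternatives were a pseudocount of 0.1, no filter (31466 genes), median-ratio scaling over 8694 genes, the replicate number as a block, each library left out, thresholds of 0.5 and 5 TPM and, for single cells, more than 500 genes, a mitochondrial limit of 20% and all barcodes. The 7 members *Ivl*, *Lor*, *Flg*, *Tgm1*, *Tgm3*, *Sbsn* and *Dmkn* are called single genes. A further symbol, *Sprr2c-ps*, was outside the matrix naming and at 0 in all libraries.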

Additional observations from a re-analysis of the deposited data

Results flagged for a closer look

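The difference between CD44high and CD44low cells differed between organs for 4 of the 16 pathway genes named by rule, by an interaction contrast in limma with p adjusted over 15348 genes. Several of them were named for the size of a CD44 difference (*Gata3* and *Jund* in lung, *Krt16* in LN), so the contrast is no independent support for it. For *Gata3* the CD44 difference in lung exceeded that in LN by 6.42 (standard error 0.57, adjusted p = 3.43e-05) and that in BM by 6.47 (adjusted p = 3.43e-05) on the log2 scale. *Cebpb* differed the other way, by -5.44 (standard error 1.14, adjusted p = 0.00854) between lung and LN and -4.44 (adjusted p = 0.0267) between lung and BM. *Jund* differed by -5.59 between lung and LN (standard error 1.68, adjusted p = 0.0428), and between lung and BM the difference of -2.77 was not called (adjusted p = 0.327), with 138 TPM in BM CD44low replicate 2. *Krt16* differed by 3.06 between lung and LN (standard error 0.65, adjusted p = 0.00888), where it was listed at 0 in all 4 lung libraries, and was not called between lung and BM (0.31, adjusted p = 0.810) or BM and LN (2.76, adjusted p = 0.245). Of 5 further genes named after their values were seen, *Crct1*, *Cst6* and *Cdsn* were called between lung and LN (-5.95, 2.44 and 4.73, adjusted p = 6.66e-06, 0.00330 and 0.000263) and between lung and BM (-5.95, 2.61 and 3.47, adjusted p = 6.51e-06, 0.00243 and 0.00221). *Fosl1* was called between lung and LN alone (-2.34, adjusted p = 0.0466), and *Fosl2* in none. Of the 64 tested list genes, 13 (20.3%) were called in the contrast of lung with LN, 10 (15.6%) in that of lung with BM and 0 in that of BM with LN (where 6 had an unadjusted p under 0.05 in limma), beside 10.4%, 8.66% and 0.117% of all genes.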

How the results depend on the processing

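No called result changed sign under the alternatives run, but small differences that were not called did, such as that of *Lce3c* between lung CD44low cells and MFP (0.07, and -0.49 without MFP replicate 1). With a pseudocount of 0.1, 4 members instead of 2 were called lower than MFP in each LN and BM group, without a count of all genes called at that setting. The size of the members' differences depends on this choice, as 35 of 54 differences of the 6 tested members moved by over 1 standard error, and that of *Sprr2a2* between lung CD44high cells and MFP went from 2.09 to 4.25. Without MFP replicate 1, and likewise without replicate 2, 30 of 54 moved so. The 1 list gene called between LN CD44high and low cells became 0 without the filter on low TPM and 0 with the replicate number as a block, where *Krt16* had an adjusted p of 0.0606 and 0.0522 in limma and an unchanged difference of -3.06. The replicate numbers did not pair the samples: the deviations of same-numbered libraries correlated at -0.19 to 0.17, over 0.1 in 3 of 21 pairs of groups, and the block moved no other count by over 1.5 times. At a threshold of 5 TPM, 1 member was expressed in both libraries of a group instead of 5. Over all barcodes, the members had 1.96 per 10000 in lungL, and 1.95 without *Sprr1a*, in place of 1.70. Without the cell with the most counts, an alternative chosen after seeing the data, *Sprr1a* had 0.431 per 10000 in lungH in place of 0.534.

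With each library left out in turn, and the lone library of a group assumed to vary like the others, the members called against MFP ranged from 0 to 2 in LN CD44low, 1 to 3 in LN CD44high, 1 to 2 in each BM group, 0 to 2 in lung CD44low and 2 to 4 in lung CD44high cells. The lowest counts came without MFP replicate 1 or, in the LN CD44high and BM groups, without a library of the group itself (LN CD44high replicate 2, BM CD44low replicate 2 and either BM CD44high library). The list genes called between CD44high and low cells ranged from 0 to 3 in LN and 0 to 3 in BM, with 3 without LN CD44low replicate 2 and without BM CD44low replicate 1. *Krt16* against MFP was not called in LN CD44high cells with median-ratio scaling (-1.89), without MFP replicate 2 (-1.60) or without LN CD44high replicate 2, nor in BM CD44low cells without MFP replicate 2 (-1.78). *Jund* in lung CD44low cells against MFP was not called without lung CD44low replicate 2 (adjusted p = 0.0511 in limma). The causes were not tested. TPM without read counts leaves the counting error of low values unknown, and single-cell depth limits what a count of 0 can show.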
